A study of Mus musculus with 4 samples.

Results

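The lysosome and autophagy genes described here were 41 genes chosen by symbol, with earlier results of these data known. They were lysosomal membrane proteins, cathepsins, glycosidases and sulfatases, and genes of the ceroid lipofuscinoses. The others were enzymes and carriers of lysosomal lipids, proton pump subunits, regulators and autophagy genes. All 41 were among the 24346 genes listed in each library, and all 41 reached the average of 0.5 FPKM that was required for testing, as did 12299 genes in all. FPKM are the fragments assigned to a gene per kilobase of its transcript and per fixed number of mapped fragments, so levels of different genes are compared per length. Expression was measured by RNA sequencing of whole liver from wild type male C57BL/6 mice. Every mouse received a diet rich in fat, cholesterol and sucrose with cholate (NASH diet), which gives steatohepatitis, for 3 weeks. The control group ate the NASH diet alone, and the 7KC group ate it with 7-ketocholesterol (7KC), a cholesterol molecule oxidized in its sterol ring. There were 2 libraries per group. The sources used here do not say that the samples of a group came from separate mice, so the tests measure the spread between these samples only. No mouse on a standard diet was part of the comparison, and the libraries show 1 strain, 1 sex and 1 time point.

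Lysosomes are acidic organelles in which proteases, glycosidases and lipases break down material taken up by endocytosis and phagocytosis or delivered by autophagy. A proton pump acidifies them, and the transcription factors TFEB and TFE3 bind to a shared element in the promoters of many lysosomal genes. In the liver, hepatocytes break down lipoprotein remnants and their own organelles in lysosomes, and macrophages, which carry many lysosomes, break down lipid and dead cells. Cholesterol released in the lysosome leaves it through the proteins NPC2 and NPC1.

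The livers of the 7KC group held more RNA of several of the 41 genes than those of the control group. Among genes whose libraries did not overlap between the groups, the differences were largest for the autophagy gene Dram1 and for Ctss, Laptm5, Ctsc and Psap. In contrast, Ctsl was lower, and the other autophagy genes, Sqstm1 and Map1lc3b, were close to the control values. The summed level of the 41 genes was 3675 and 3643 FPKM in the control group and 3995 and 5098 FPKM in the 7KC group. As a share of all FPKM of a library, the sum was 0.537% and 0.543% in the control group and 0.644% and 0.915% in the 7KC group. Both 7KC libraries were above both control libraries, and 7KC replicate 2 stood well above the other 3.

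Of the 41 genes, 20 (48.8%) were higher in both 7KC libraries than in both control libraries, against 25.1% of all tested genes. Another 7 (17.1%) were lower in both 7KC libraries, against 27.4% of all tested genes, and the libraries of the remaining 14 overlapped. The difference between the groups was larger than both gaps between replicates for 15 genes in the higher direction and 5 in the lower, against 19.4% and 20.1% of all tested genes. The median log2 change of the 41 genes was 0.21, on the scale of log2(FPKM + 0.5), and that of all tested genes was -0.03. A log2 change above 0 was seen for 33 of the 41 genes (80.5%) and for 46.1% of all tested genes. By limma with Benjamini-Hochberg adjustment over all tested genes, 1 gene, Dram1, was past the threshold of 0.05 in the higher direction (background 0.480%) and 0 in the lower (background 0.0244%). At an unadjusted p under 0.05 there were 9 higher (background 12.0%) and 1 lower, Ctsl (background 5.81%). An exact permutation test cannot reach the threshold for any gene, because 2 libraries against 2 have 3 splits and the smallest two-sided p is 0.333.

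**Figure D1:**
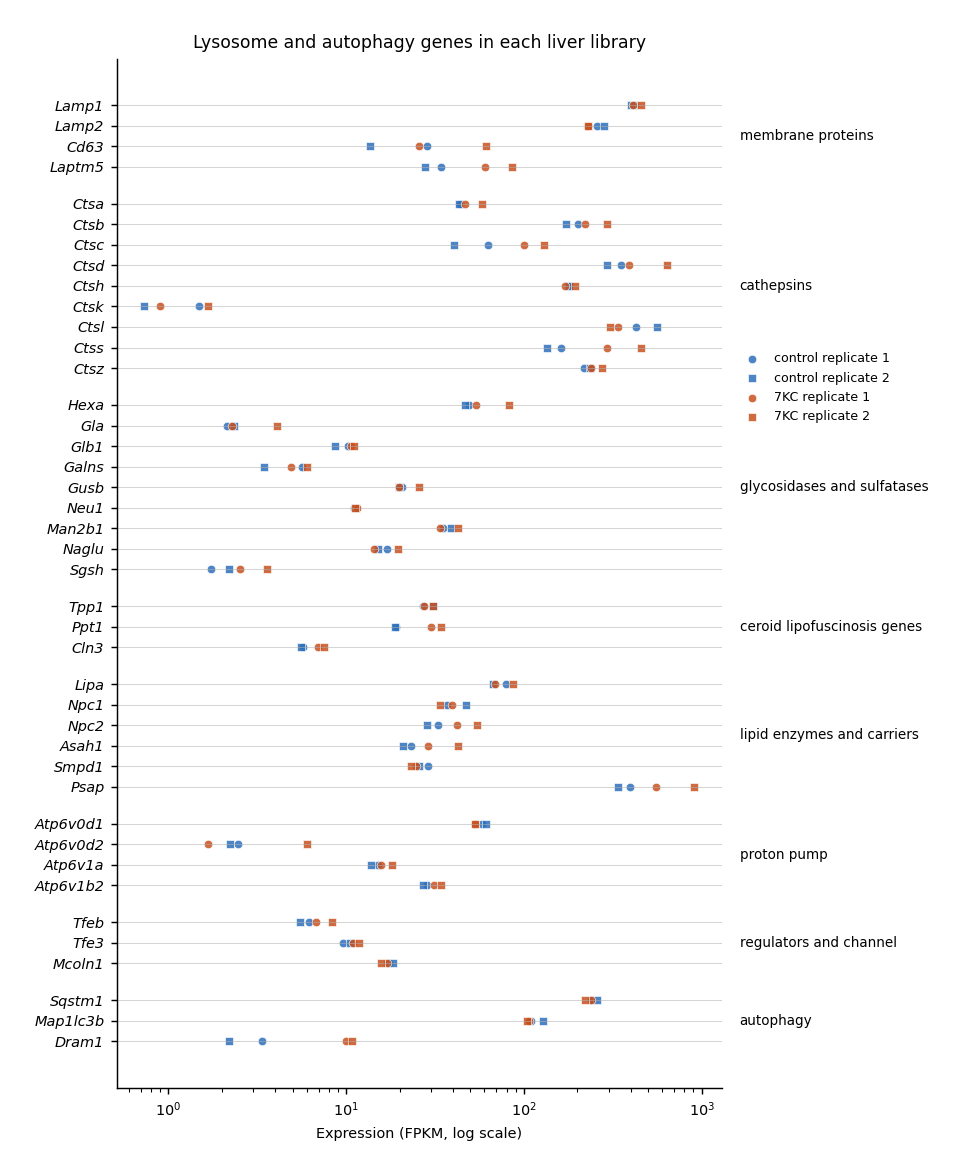
Expression of the 41 lysosome and autophagy genes in FPKM on a log scale, grouped by role, with control libraries in blue, 7KC libraries in orange, circles for replicate 1 and squares for replicate 2. For 20 genes both orange symbols lie to the right of both blue symbols, and for 7 genes, among them Ctsl and Lamp2, they lie to the left.

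The replicates of the 7KC group were further apart than those of the control group in these genes. The median absolute log2 gap between replicates was 0.27 in the 7KC group and 0.16 in the control group, and over all tested genes it was 0.17 and 0.16. 7KC replicate 2 was above 7KC replicate 1 for 33 of the 41 genes (80.5%), against 47.7% of all tested genes, and for 20 of the 20 genes that were higher without overlap. Without 7KC replicate 2, the median log2 change of the 41 genes was 0.10 (all genes -0.02), with 21 genes above both control libraries and 12 below (all genes 33.5% and 37.8%). Without 7KC replicate 1 it was 0.34 (all genes -0.03), with 31 above and 8 below (all genes 36.8% and 41.9%).

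Markers of some cell types also differed between the groups, and those of others did not. Of 14 monocyte and macrophage markers, 12 were higher in the 7KC group without overlap (85.7%, beside the 25.1% of all tested genes that were higher and the 27.4% that were lower), with a median log2 change of 1.28, and their summed level was 427 and 325 FPKM in the control group and 729 and 986 FPKM in the 7KC group. No marker of that list was at 0, the lowest being Cx3cr1 at 0.913 FPKM in control replicate 2. The median of 7 resident Kupffer cell markers was 0.02, with 3 higher, 1 lower and summed levels of 387 and 456 FPKM against 445 and 597 FPKM. All 7 tested T and NK cell markers were higher without overlap, with a median log2 change of 1.26 and summed levels of 17.9 and 12.6 FPKM against 43.9 and 39.1 FPKM. Of the few tested B cell, neutrophil and cholangiocyte markers 1 of 3, 2 of 4 and 2 of 4 were higher. The 2 higher cholangiocyte markers were Spp1 (log2 change 1.84) and Sox9 (0.33), and 1, Krt19, was lower without overlap (-0.22). Of the endothelial markers 0 of 6 were higher, and of the stellate cell markers 0 of 6, the latter with 3 lower. Hepatocyte markers were the most abundant, in keeping with the labelled tissue, with Alb (albumin) between 18988 and 41547 FPKM. Of 10 hepatocyte markers, 0 were higher and 7 were lower without overlap, and their sum was 69527 and 58625 FPKM in the control group and 49815 and 37351 FPKM in the 7KC group. In RNA from whole liver, more or fewer cells of a type and more or less RNA per cell cannot be told apart. The part of these cell types in the results for the lysosome and autophagy genes was not tested.

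FPKM are relative values, and the scaling between libraries bears on small differences. The deposited values shared a common median ratio (factors of 1.001 to 1.003), while their sums fell from 685028 and 671235 in the control group to 619828 and 557138 in the 7KC group. When the libraries were rescaled to the same sum, the median of all tested genes moved to 0.16 and that of the 41 genes to 0.41, with 27 genes higher and 1 lower without overlap, against 46.6% and 7.83% of all tested genes. The share of higher genes among those without overlap was 74.1% as deposited (all genes 47.8%), 96.4% after this rescaling (all genes 85.6%) and 87.5% after quantile normalization (all genes 38.1%). Log2 changes below are from the values as deposited and are to be read against their all-gene median of -0.03. Those of Npc1, Smpd1, Atp6v0d1, Mcoln1, Sqstm1 and Map1lc3b changed sign in this rescaling, to log2 changes of 0.01, 0.02, 0.04, 0.07, 0.10 and 0.03, which lay below the all-gene median of 0.16.

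The promoters are shown first, because lysosomal genes are known for sharing the E-box-like element bound by TFEB and TFE3. RefSeq windows of 250 bases before an annotated start (build GRCm38.p6) were matched for 34 of the 41 genes. Both strands were searched, and a match in any window of a gene was counted. The 6 letters CACGTG were present in 11 of the 34 (32.4%) and in 6.86% of the promoters of 27025 genes. The longer GTCACGTG, which contains CACGTG, was present in 9 of the 34 (26.5%), namely Lamp1, Ctsa, Ctsd, Gla, Glb1, Naglu, Sgsh, Cln3 and Mcoln1, and in 2.11% of all genes. In Ctsa and Cln3 the match lies inside the annotated span of the gene, before a RefSeq start within it. The stretches of 3 of the 9 genes that overlap no annotated exon follow, on the strand of the gene. GTCACGTG or its reverse complement is in capitals. The Lamp1 stretch lies at chr8:13159109-13159160 (+), that of Ctsd at chr7:142388041-142388077 (-) and that of Glb1 at chr9:114401004-114401059 (+).
Lamp1: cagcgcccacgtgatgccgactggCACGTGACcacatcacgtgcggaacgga
Ctsd: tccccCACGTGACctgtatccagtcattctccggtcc
Glb1: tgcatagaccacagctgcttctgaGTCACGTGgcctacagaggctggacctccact

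The 9 genes with GTCACGTG had a median log2 change of 0.26, between -0.13 and 0.65, with 5 higher and 1 lower without overlap, where 25.1% and 27.4% of all genes were. The 1 lower gene was Mcoln1, whose log2 change was 0.07 in the rescaling to the same sum (all-gene median 0.16). The 25 genes without it had a median of 0.17, between -0.61 and 1.76, with 12 higher and 6 lower. Dram1, Ctss, Laptm5, Ctsc and Psap, the 5 genes with the largest differences without overlap, had no GTCACGTG in the windows searched.

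Other motifs were searched for the factors of inflammatory and myeloid genes. A pair of GAAA repeats 2 bases apart, the core of interferon-response elements, was found in 2 of the 34 promoters (5.88%, all genes 3.46%), those of Lamp1 and Ctss. GAGGAAGT, a form of the site of the myeloid factor PU.1, was found in 2 (5.88%, all genes 2.79%), those of Ctsc and Gla. TGACNNNGC, the core of the antioxidant response element, was found in 8 (23.5%, all genes 11.5%). The stretches of the 2 cathepsin genes with large differences are at chr3:95526741-95526785 (+) for Ctss and chr7:88277910-88277965 (+) for Ctsc, with the repeat pair and the PU.1-type site (reverse complement) in capitals.
Ctss: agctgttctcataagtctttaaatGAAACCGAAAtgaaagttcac
Ctsc: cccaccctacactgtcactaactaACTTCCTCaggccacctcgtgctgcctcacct

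A match to these letters is a description of the window, and binding was not measured.

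Among the membrane proteins, Laptm5 was higher and Lamp2 lower in the 7KC group without overlap as deposited, and Lamp1 was nearly level. Laptm5, a lysosomal membrane protein of blood cell lineages (chr4:130913125-130936141, + strand), was at 34.2 and 27.6 FPKM in the control group and at 60.4 and 85.6 FPKM in the 7KC group. Every 7KC value was above every control value, by 2.36-fold between the means, with a log2 change of 1.21 ± 0.21 (SE) that missed the threshold (limma, adjusted p = 0.0704). Cd63, a tetraspanin of late endosomes and exosomes, was at 28.5 and 13.6 FPKM in the control group and at 25.8 and 61.1 FPKM in the 7KC group. Its libraries overlapped, since 7KC replicate 1 was below control replicate 1, and its log2 change of 0.99 ± 0.50 had an adjusted p of 0.369.

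Lamp1 and Lamp2 encode the main glycoproteins of the lysosomal membrane and were among the most abundant genes of the 41. Lamp1 was at 419 and 401 FPKM in the control group and at 409.7 and 458 FPKM in the 7KC group, so the groups overlapped. Its log2 change was 0.08 ± 0.14 (adjusted p = 0.794). Lamp2 was at 258 and 281 FPKM in the control group and at 229.6 and 228 FPKM in the 7KC group. Both 7KC values were below both control values, with a log2 change of -0.23 ± 0.12 (limma, adjusted p = 0.380). The log2 change of Lamp2 was -0.03 when the libraries were rescaled to the same sum (all-gene median 0.16). The ratio of Lamp1 to Lamp2 was 1.62 and 1.43 in the control group and 1.78 and 2.00 in the 7KC group.

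The cathepsins, the proteases of the lysosome, differed widely among themselves, with log2 changes from -0.61 to 1.31. Of 9 genes, 6 were higher (66.7%, all genes 25.1%) and 1 was lower (11.1%, all genes 27.4%) without overlap, with a median log2 change of 0.26. In limma 0 passed the threshold, and 2 were higher and 1 lower at an unadjusted p under 0.05 (all genes 12.0% and 5.81%). Their summed level was 1647 and 1663 FPKM in the control group and 1804 and 2356 FPKM in the 7KC group.

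Cathepsin S, which acts in antigen-presenting cells and trims the invariant chain of MHC class II, had the largest difference of the family. Ctss (chr3:95526786-95556403, + strand) was at 162 and 135 FPKM in the control group and at 293 and 459 FPKM in the 7KC group. The 7KC values were separate from the control values and also far from each other, and the means were 149 ± 18.8 and 376 ± 118 FPKM (SD, n = 2). The difference was 2.53-fold, with a log2 change of 1.31 ± 0.24 (limma, adjusted p = 0.0848). Ctsc, which encodes the dipeptidyl peptidase that activates the granule proteases of leukocytes (chr7:88278085-88310888, + strand), was at 62.5 and 40.5 FPKM in the control group and at 99.96 and 129.7 FPKM in the 7KC group. Its log2 change without overlap was 1.17 ± 0.25 (adjusted p = 0.103).

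Cathepsin L, a cysteine protease of the same family, moved the other way. Ctsl (chr13:64359337-64370890, - strand) was the most abundant of the 41 genes in both control libraries, at 428 and 562 FPKM, and was at 340.4 and 303 FPKM in the 7KC group. Both 7KC values were below both control values, with means of 495 ± 94.7 and 322 ± 26.1 FPKM (SD, n = 2), and the log2 change was -0.61 ± 0.18 (limma, adjusted p = 0.190). The ratio of Ctsl to Ctss was 2.64 and 4.15 in the control group and 1.16 and 0.661 in the 7KC group, so that Ctss exceeded Ctsl in 7KC replicate 2 only. Ctss made up 9.83% and 8.14% of the summed cathepsin level in the control group and 16.2% and 19.5% in the 7KC group, and Ctsl 26.0% and 33.8% against 18.9% and 12.9%. Exons of Ctsl overlap annotated genes on the same and on the opposite strand, and how reads there were assigned is not given in the sources used here.

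**Figure D2:**
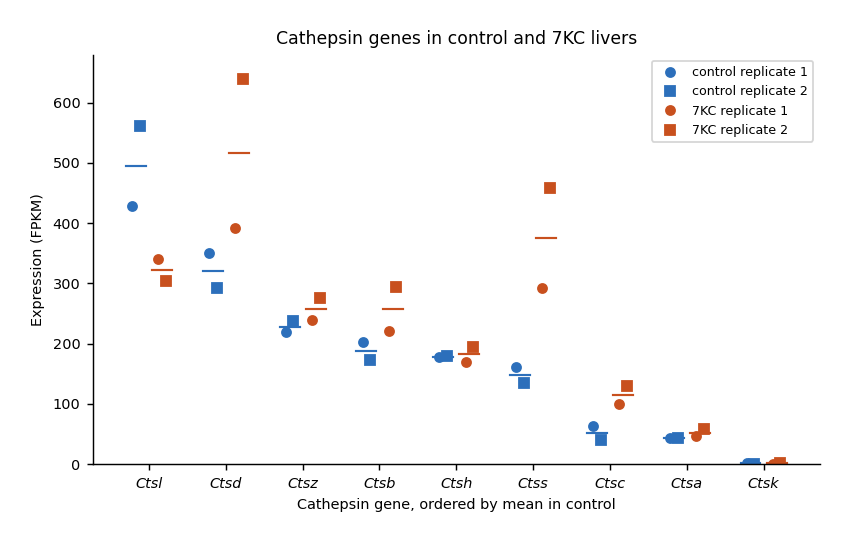
Expression of the 9 cathepsin genes in FPKM, ordered by their control mean, with each library as a symbol (control in blue, 7KC in orange, circles for replicate 1, squares for replicate 2) and each group mean as a line. Ctss lies higher in both 7KC libraries (293 and 459 FPKM) than in both control libraries (162 and 135 FPKM), and Ctsl lies lower (340.4 and 303 FPKM against 428 and 562 FPKM).

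Cathepsins D and B, the broadly expressed aspartic and cysteine proteases of the lysosome, were higher without overlap, mainly through 7KC replicate 2. Ctsd was at 351 and 292 FPKM in the control group and at 393 and 639 FPKM in the 7KC group, with a log2 change of 0.65 ± 0.26 (adjusted p = 0.289). Ctsb was at 202 and 173 FPKM in the control group and at 221 and 295 FPKM in the 7KC group, with a log2 change of 0.45 ± 0.19 (adjusted p = 0.297). In both genes 7KC replicate 1 lay just above the higher control value. Ctsa, whose product protects lysosomal galactosidase and neuraminidase, and Ctsz were also higher without overlap, with log2 changes of 0.26 and 0.17. Ctsh was level at 0.03. Ctsk, the collagen-degrading cathepsin of osteoclasts, was near the detection limit at 1.48 and 0.735 FPKM against 0.899 and 1.68 FPKM, with overlap, and its lowest value rested on about 13 reads.

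Cystatins, the inhibitors of cysteine cathepsins, were a list outside the 41 genes. Of 9 listed cystatin and stefin genes 3 passed the filter on low values. All 3 were higher without overlap, where 25.1% of all tested genes were, and 0 passed the threshold. Cst7, which encodes cystatin F of leukocytes, was at 6.60 and 3.16 FPKM in the control group and at 18.02 and 16.0 FPKM in the 7KC group (log2 change 1.78 ± 0.32, adjusted p = 0.0766). Cstb, which encodes the cytosolic cystatin B, was at 90.8 and 76.0 FPKM against 128 and 142 FPKM (log2 change 0.70 ± 0.14, adjusted p = 0.0966), and Cst3, the secreted cystatin C, had a log2 change of 0.27. Their summed level with the unfiltered genes was 399.6 and 335 FPKM in the control group and 467 and 510.1 FPKM in the 7KC group.

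The glycosidases and sulfatases, which take apart the sugar chains of glycolipids, glycoproteins and glycosaminoglycans, had small differences. The log2 change was above 0 for 9 of 9 genes, with a median of 0.19, but only 3 (Hexa, Glb1 and Sgsh) were separate between the groups, which at 33.3% was not far from the 25.1% of all genes, and 0 passed the threshold or had an unadjusted p under 0.05. Hexa, the alpha subunit of hexosaminidase that degrades ganglioside GM2, was at 49.3 and 46.5 FPKM in the control group and at 53.6 and 82.2 FPKM in the 7KC group, with a log2 change of 0.47 ± 0.22 (limma, adjusted p = 0.334). Most of that difference came from 7KC replicate 2. Sgsh, the heparan sulfate sulfamidase, was at 1.75 and 2.18 FPKM in the control group and at 2.52 and 3.59 FPKM in the 7KC group, with a log2 change of 0.52 ± 0.21 (adjusted p = 0.285). Glb1, the beta-galactosidase of GM1 breakdown, was at 0.19. The other 6 overlapped, with log2 changes of 0.39 for Gla (alpha-galactosidase), 0.27 for Galns (a sulfatase of keratan sulfate), 0.15 for Gusb (beta-glucuronidase), 0.06 for Naglu (a glucosaminidase of heparan sulfate), 0.03 for Man2b1 (alpha-mannosidase) and 0.02 for Neu1 (neuraminidase).

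The genes of the ceroid lipofuscinoses are those whose loss leads to storage of lipofuscin-like material. Ppt1, which removes palmitate from proteins (chr4:122836242-122859175, + strand), was at 19.2 and 18.8 FPKM in the control group and at 30.2 and 34.4 FPKM in the 7KC group. The replicates lay close together in both groups, with means of 19.0 ± 0.243 and 32.3 ± 2.99 FPKM (SD, n = 2), and the log2 change of 0.75 ± 0.12 had the second smallest p of the 41 genes (limma, adjusted p = 0.0621). Cln3, a lysosomal membrane protein, was higher without overlap with a log2 change of 0.34 (adjusted p = 0.238), and Tpp1, a tripeptidyl peptidase, was level at 0.01.

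Among the lipid enzymes and carriers, the sphingolipid genes Psap and Asah1 and the cholesterol carrier Npc2 were higher, while Npc1 and Lipa overlapped between the groups. Psap, the precursor of the saposins that assist sphingolipid hydrolases (chr10:60277627-60302597, + strand), was at 394 and 338 FPKM in the control group and at 553 and 906 FPKM in the 7KC group. It was the most abundant of the 41 genes in both 7KC libraries and made up 10.7% and 9.27% of their summed level in the control group and 13.8% and 17.8% in the 7KC group. The 7KC values were separate from the control values but spread widely, and the log2 change of 0.96 ± 0.26 had an adjusted p of 0.167 in limma. Asah1, the acid ceramidase, was at 23.3 and 20.9 FPKM in the control group and at 28.8 and 42.5 FPKM in the 7KC group, with a log2 change of 0.65 ± 0.20 (adjusted p = 0.203). Smpd1, the acid sphingomyelinase, was lower without overlap, with a log2 change of -0.18 (adjusted p = 0.470). It was 0.02 when the libraries were rescaled to the same sum (all-gene median 0.16).

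The cholesterol genes of the lysosome did not move together. Npc2, the soluble carrier, was at 32.8 and 28.4 FPKM in the control group and at 42.2 and 54.5 FPKM in the 7KC group, without overlap, and its log2 change was 0.64 ± 0.16 (adjusted p = 0.143). Npc1, the membrane transporter that takes cholesterol over from NPC2, was at 37.1 and 47.6 FPKM in the control group and at 39.5 and 33.9 FPKM in the 7KC group. The groups overlapped, with a log2 change of -0.20 ± 0.16 (adjusted p = 0.563). Lipa, the acid lipase that splits cholesteryl esters and triglycerides, was at 79.3 and 66.9 FPKM in the control group and at 68.9 and 87.4 FPKM in the 7KC group. These values interleaved, and the log2 change of 0.09 ± 0.17 had an adjusted p of 0.807.

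Of the 4 proton pump genes, Atp6v1a and Atp6v1b2, subunits of the catalytic part, were higher without overlap with log2 changes of 0.21 and 0.24. Atp6v0d1, a subunit of the membrane part, was lower at -0.16. Its log2 change was 0.04 when the libraries were rescaled to the same sum (all-gene median 0.16). Atp6v0d2, the alternative d subunit known from osteoclasts and macrophages, was at 2.48 and 2.23 FPKM in the control group and at 1.68 and 6.06 FPKM in the 7KC group. Its 7KC replicates differed 3.62-fold and lay on either side of the control values. Of 16 other tested pump subunits, 4 were higher and 3 lower without overlap, with a median log2 change of 0.01. The share that was higher was 25.0%, beside 25.1% of all genes, and the rescaling to the same sum gave 12 higher and 0 lower, with a median of 0.21 (all genes 46.6%, 7.83% and 0.16). Their largest difference was that of Tcirg1, the a3 subunit used by osteoclasts and macrophages, at 19.5 and 14.8 FPKM against 28.8 and 36.9 FPKM (log2 change 0.92 ± 0.19, adjusted p = 0.0999).

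The regulators were at low to moderate levels. Tfeb, the master transcription factor of lysosomal genes, was at 6.16 and 5.49 FPKM in the control group and at 6.77 and 8.28 FPKM in the 7KC group. Both 7KC values were above both control values, with a log2 change of 0.34 ± 0.15 (adjusted p = 0.314). Its relative Tfe3 was also higher without overlap, at 0.17. Mcoln1, the calcium channel of the lysosomal membrane, was at 17.4 and 18.4 FPKM in the control group and at 17.0 and 15.7 FPKM in the 7KC group. It was just below without overlap (log2 change -0.13 ± 0.11, limma, adjusted p = 0.583). In the rescaling to the same sum its log2 change was 0.07, below the all-gene median of 0.16. The RNA level of Tfeb does not show its activity, which is set largely by phosphorylation and entry into the nucleus.

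Of the autophagy genes, Dram1 rose, and Sqstm1 and Map1lc3b were slightly lower as deposited. When the libraries were rescaled to the same sum, these were at 0.10 and 0.03, below the all-gene median of 0.16 in that scaling. Dram1, a lysosomal membrane protein induced by p53 that promotes autophagy (chr10:88322804-88379080, - strand), was at 3.37 and 2.19 FPKM in the control group and at 10.1 and 10.8 FPKM in the 7KC group. The 7KC replicates were close together and far above both control values, with means of 2.78 ± 0.837 and 10.4 ± 0.557 FPKM (SD, n = 2), a 3.76-fold difference. Its log2 change of 1.76 ± 0.20 was past the threshold in limma (adjusted p = 0.0486), by a small margin. Over the alternatives the log2 change stayed between 1.5 and 2.02. In limma it missed the threshold with a pseudocount of 0.1 (adjusted p = 0.0538) and with no filter on low values (0.142). It also missed it with a mean of at least 1 FPKM (0.0505) or 5 FPKM (0.0522) and with quantile normalization (0.0608). The same held for one prior variance (0.0636), for the replicate number as a block (0.184) and without either 7KC library. Dram1 stayed past the threshold with a pseudocount of 1 (0.0432), in the rescaling to the same sum (0.0213) and in that by the median ratio (0.0494). The values rested on about 79 to 388 reads.

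Sqstm1, which encodes the autophagy receptor p62, was at 238 and 256 FPKM in the control group and at 237 and 221 FPKM in the 7KC group. The groups just failed to overlap, and the log2 change was -0.11 ± 0.12 (adjusted p = 0.684). Map1lc3b, which encodes the autophagosome protein LC3B, was at 109 and 129 FPKM in the control group and at 106 and 104 FPKM in the 7KC group. Its log2 change was -0.17 ± 0.13 (adjusted p = 0.532). Autophagic flux cannot be read from RNA levels of these genes.

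**Figure D3:**
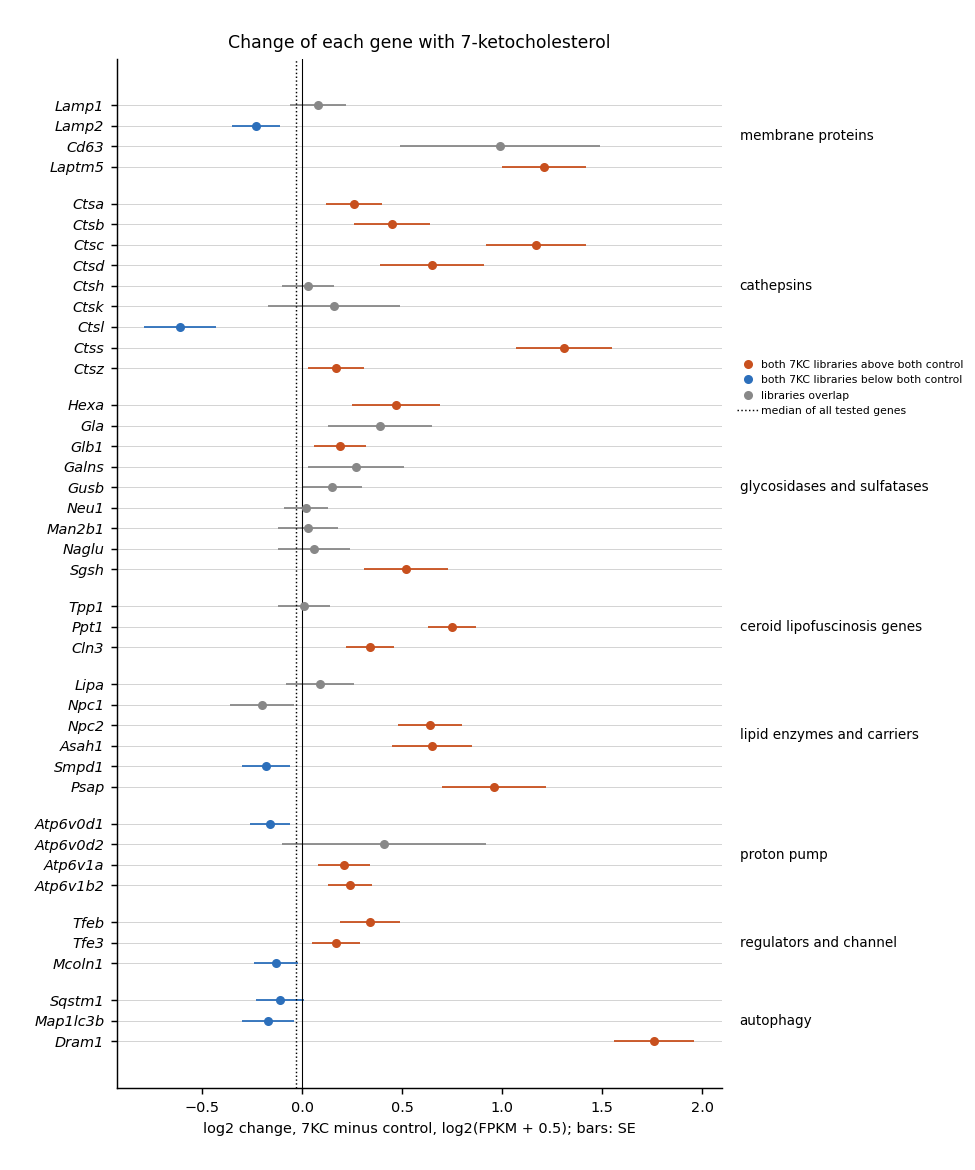
Log2 change of each of the 41 genes, 7KC minus control, on the scale of log2(FPKM + 0.5), with bars for the standard error, the dotted line at the median of all tested genes (-0.03), and colors for genes whose 7KC libraries were both above (orange), both below (blue) or overlapping (grey) the control libraries. Dram1 (1.76) lies furthest to the right, followed by Ctss, Laptm5 and Ctsc, and Ctsl (-0.61) furthest to the left.

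Of 180 tested genes of the wider pathway lists, which hold none of the 41, 46 were higher and 43 lower without overlap. These shares of 25.6% and 23.9% were near those of all tested genes, 25.1% and 27.4%, and the median log2 change was 0.00. In limma 1 gene was past the threshold. This was Naaa, an acid amidase that hydrolyses N-acylethanolamines, at 4.64 and 4.26 FPKM in the control group and at 11.7 and 11.2 FPKM in the 7KC group (log2 change 1.28 ± 0.12, adjusted p = 0.0311). It belongs to the list of other lysosomal hydrolases, of which 14 of 32 were higher (43.8%, all genes 25.1%) and 5 lower (15.6%, all genes 27.4%) without overlap, with a median of 0.15. The largest difference of that list was Lyz2, the lysozyme of macrophages and neutrophils, at 538 and 321 FPKM against 995 and 1583 FPKM (log2 change 1.59 ± 0.34, adjusted p = 0.104). Aga, the aspartylglucosaminidase, had the largest difference in the lower direction among the separate genes, with a log2 change of -0.35.

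Of 32 other lysosomal membrane proteins and transporters, 12 were higher and 8 lower without overlap (37.5% and 25.0%, all genes 25.1% and 27.4%), with a median of 0.08. The rescaling to the same sum gave 20 higher and 1 lower, with a median of 0.28 (all genes 46.6%, 7.83% and 0.16). Slc15a3, a peptide and histidine transporter of immune cells, was at 5.63 and 4.75 FPKM in the control group and at 11.3 and 15.8 FPKM in the 7KC group (log2 change 1.29 ± 0.19, adjusted p = 0.0599). Cd68, the macrophage lysosomal glycoprotein, was at 36.4 and 26.9 FPKM against 56.5 and 96.9 FPKM (log2 change 1.23 ± 0.29, adjusted p = 0.128), and Slc11a1, the metal transporter of phagosomes, had a log2 change of 1.11. Of 26 genes that sort proteins to the lysosome, 8 were higher and 4 lower without overlap (30.8% and 15.4%, all genes 25.1% and 27.4%), with a median of 0.06. After the rescaling they were 18 and 0, with a median of 0.25 (all genes 46.6%, 7.83% and 0.16). Rab27a, a GTPase of secretory lysosomes, had the largest difference at 0.76.

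The list of the autophagy machinery had a median below 0 as deposited, though not after the rescaling to the same sum. Of 49 tested genes, 2 were higher and 16 lower without overlap (4.08% and 32.7%, beside 25.1% and 27.4% of all genes), with a median of -0.08, and 0 passed the threshold, with 1 higher and 4 lower at an unadjusted p under 0.05. Ulk1, the kinase that starts autophagosome formation, was at 24.5 and 45.9 FPKM in the control group and at 21.8 and 20.5 FPKM in the 7KC group (log2 change -0.65 ± 0.29, adjusted p = 0.327). The control replicates of Ulk1 were themselves far apart. Gabarapl1, an LC3 relative, had a log2 change of -0.47. Irgm1, an interferon-inducible GTPase, went the other way, at 31.4 and 35.3 FPKM against 122 and 82.1 FPKM (log2 change 1.57 ± 0.21, adjusted p = 0.0523). When the libraries were rescaled to the same sum, the list turned to 23 of 49 higher and 4 lower, close to the 46.6% and 7.83% of all genes in that scaling, with a median of 0.11 against 0.16 for all genes.

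Of 22 genes of the TFEB family and of mTORC1 signaling at the lysosome, 3 were higher and 7 lower without overlap (13.6% and 31.8%, all genes 25.1% and 27.4%), with a median of -0.06. In the rescaling to the same sum there were 10 higher and 1 lower, with a median of 0.14 (all genes 46.6%, 7.83% and 0.16). The 3 higher genes were Mitf and Tfec, relatives of Tfeb, with log2 changes of 0.70 and 0.54, and the GTPase gene Rragd with 0.36. Tsc1, a brake on mTORC1, had the largest difference of the lower genes at -0.37.

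**Figure D4:**
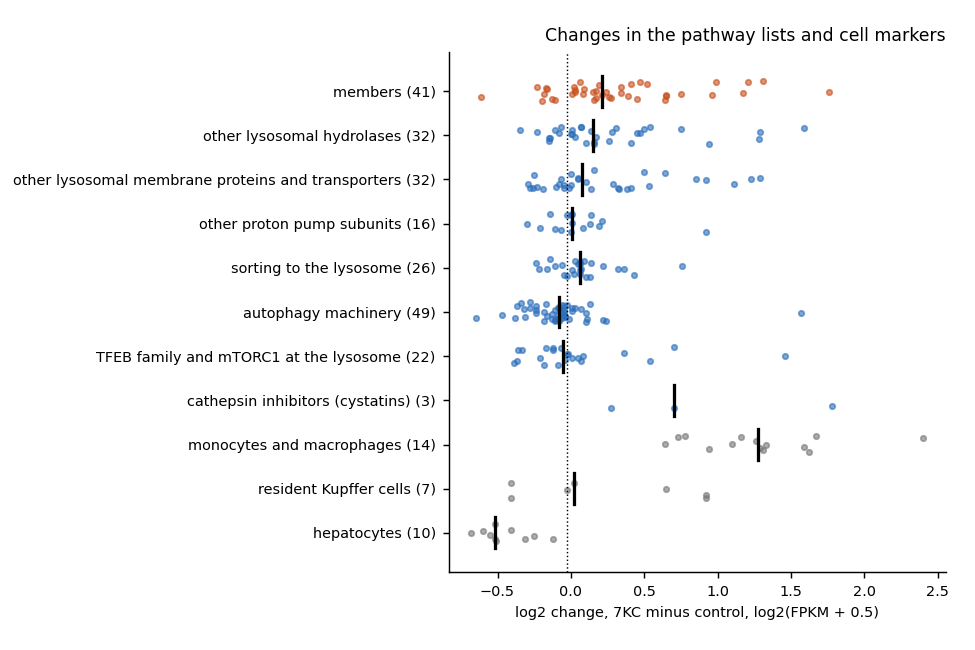
Log2 change, 7KC minus control, of each tested gene (points) and the median of each list (bars) for the 41 genes, 7 wider lysosome and autophagy lists and 3 lists of cell type markers, with the number of tested genes in parentheses and the dotted line at the median of all tested genes. The 41 genes (median 0.21) lie between the monocyte and macrophage markers (1.28) and the hepatocyte markers (-0.51), and the autophagy machinery (-0.08) lies below the median of all genes.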

How the data were processed

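Total RNA of liver was made into stranded mRNA libraries and sequenced as single-end reads. Per the submitters' processing notes, reads were handled with TopHat2 2.1.1, Bowtie2 2.2.8, SAMtools 0.1.18 and Cuffdiff 2.2.1 on mouse genome mm10. The authors deposited the values as FPKM, 1 per symbol in each library. The annotation, the strand setting and the treatment of reads with several matches are not given in the sources used here; exons of 12 of the 41 genes overlap a gene on the opposite strand and those of 3 a gene on the same strand. FPKM are not counts, and no count test was run. The steps of low values put depth, on the scale of the deposited values, at between 13600000 and 17100000 reads per library. The deposited values share a common median ratio, so this need not be the number of mapped reads of each library. Of values up to 6 reads in genes with 1 transcript, 76.9% to 79.1% lay within 0.1 of a whole read. Depth was only described, not used in a test, and limits genes of few reads such as Ctsk.

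Groups were taken from the sample labels. Values were compared as log2(FPKM + 0.5), which understates differences of low genes, with limma 3.58.1 in R 4.3.3 (lmFit, eBayes with trend, group as the only term) over the 12299 genes averaging 0.5 FPKM or more, with Benjamini-Hochberg adjustment over all of them. The residual degrees of freedom were 2 and those of the prior 3.27. Groups did not overlap where the lowest value of one was above the highest of the other. The 41 genes and the wider and marker lists were chosen with earlier results of these data known. Full values were given for the 14 of the 41 genes with the largest absolute log2 change and for 12 fixed genes, 22 in all, and for genes of the wider lists past the threshold or with the largest differences. Gene positions came from GENCODE M21 (GRCm38), promoters from RefSeq. The limma step was tested on simulated data. Alternatives were the pseudocount, the filter, 3 scalings, the prior variance, the replicate number as a block and leaving out each library.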

Additional observations from a re-analysis of the deposited data

How the results depend on the processing

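Of 307 values of the 22 genes described in full under the alternatives, 286 kept their direction and their side of the threshold, 4 passed it, 9 no longer passed it and 8 changed sign. The count of the 41 genes past the threshold (Dram1) was 0 with a pseudocount of 0.1, with no filter, with a mean of at least 1 or 5 FPKM, with quantile normalization, with one prior variance and with the replicate block (limma); at an unadjusted p under 0.05 these settings had 10 or 11 genes. It was 4 with libraries rescaled to the same sum (Laptm5, Ctss, Ppt1 and Dram1), 0 to 2 when 1 library was left out, 0 without either 7KC library and 2 (Ctsc and Dram1) without control replicate 1. Among all tested genes there were 59 higher and 3 lower calls, 398 and 7 with libraries rescaled to the same sum, 111 and 4 with a pseudocount of 1, 0 and 1 with no filter, 39 and 1 with one prior variance, 404 and 54 without control replicate 1, 4 and 1 when 7KC replicate 1 was left out, and 2 and 2 when 7KC replicate 2 was. Whether same-numbered samples shared more than a number is not given in the sources used here. The correlation of their deviations was -0.141 over 12299 genes, which cannot settle this. The replicate block left 0 calls among the 41 genes and 0 among all. The crossed replicate block, chosen after seeing the data, gave 6 among the 41 and 551 higher and 37 lower among all.

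The count of genes higher without overlap was 21 to 31 when 1 library was left out (31 without 7KC replicate 1). The share of all tested genes that were higher was then 33.5% to 37.6%, against 25.1% with all 4 libraries. The count lower without overlap was 1 with libraries rescaled to the same sum (all genes 7.83%) and 3 with quantile normalization (all genes 34.3%). It was 7 to 12 when 1 library was left out (12 without 7KC replicate 2). The share of all tested genes that were lower was then 37.8% to 41.9%, against 27.4% with all 4 libraries. The median log2 change was 0.41 with libraries rescaled to the same sum (all genes 0.16). In that rescaling Npc1 was at 0.01, Mcoln1 at 0.07, Sqstm1 at 0.10 and Map1lc3b at 0.03, and Sqstm1 was at 0.02 with quantile normalization. With 1 library left out, Lamp1 was between -0.00 and 0.16 and Lipa between -0.08 and 0.26, with Lipa at -0.03 without control replicate 2. The causes were not tested.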
